A study of Mus musculus with 2 samples.

Results

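The type I interferon response genes described here are 47 mouse genes that type I interferon is known to induce, among them the Ifit, Oas, Ifi, Slfn, Parp and Irf families. They were chosen with earlier results of these data known. They were taken by symbol, and all 47 were found in the gene tables of both libraries, which each list 31053 genes. The libraries were made from natural killer (NK) cells sorted by flow cytometry from the brains of untreated 8-month-old female mice. 1 library came from wildtype C57BL/6 mice and 1 from 3xTg-AD mice (3XTg-AD in the labels), a transgenic line that models Alzheimer's disease. The sources used here do not state how many mice were pooled in a library, which strain background the 3xTg-AD animals had or which promoters drive the transgenes. With 1 library per genotype there was no replicate and no test, and genotype, strain background and cell preparation cannot be told apart. All 95% intervals below cover counting error only.

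Type I interferons bind a receptor built from IFNAR1 and IFNAR2, whose kinases JAK1 and TYK2 activate transcription factors, among them STAT2. Together with IRF9 these form a complex that binds the interferon-stimulated response element (ISRE) in promoters and induces antiviral effectors, nucleic acid sensors, further transcription factors and inhibitors of the pathway itself. Some of these genes are also transcribed at a low level in resting immune cells, while others are nearly silent until interferon is sensed, and in NK cells type I interferon is known to raise cytotoxic activity.

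The question the libraries allow is which of these genes differed between them, and in which barcodes. A barcode stands for 1 captured cell, and a unique molecular identifier (UMI) for 1 captured transcript. NK barcodes carried at least 3 summed UMIs of Ncr1, Klrb1c, Klre1, Prf1 and Eomes, fewer than 3 of the ILC1 list given next, and little RNA of other cell types. They numbered 1472 in the wildtype library (4615756 UMIs, median 2888.5 per barcode) and 1522 in the 3xTg-AD library (4671430 UMIs, median 2794.5). ILC1-like barcodes carried at least 3 summed UMIs of Itga1, Cxcr6, Inpp4b, Gzmc and Tnfsf10, genes used to mark type 1 innate lymphoid cells, and numbered 101 and 79 (medians of 5387 and 5559 UMIs). Ncr1, which encodes the receptor NKp46, was found in 96.3% and 98.1% of NK barcodes and in 88.1% and 98.7% of ILC1-like barcodes. The ILC1-like barcodes are named for the gate alone. The T, myeloid, erythroid and neutrophil marker lists summed to 8.45, 1.30, 17.1 and 0 counts per 1000000 UMIs (CPM) in wildtype NK barcodes and to 7.28, 6.21, 0.214 and 3.85 CPM in 3xTg-AD NK barcodes. Ttr and Apoe, which NK cells should lack, were each found in 0.131% to 0.611% of NK barcodes, a range used as a gauge of free RNA. The part of these other transcripts in the member levels was not tested. 1 barcode sequence occurred in both libraries.

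Because the pathway acts through the ISRE, the promoters of the members were read first. RefSeq windows of 250 bases upstream of the start site (GRCm38.p6) were found for 38 of the 47 members, and an ISRE motif of 2 copies of GAAA with any 2 bases between them was searched on both strands, with overlapping matches counted. The motif was present upstream of 17 of these 38 members (44.7%), against 936 of 27025 genes with a window (3.46%). It was found for 5 of 12 members later called confined, both defining genes Ifit1 and Ifit3, 4 of 14 broad members and 4 of 7 in neither set. The matches lay 4 to 212 bases upstream, with a median of 68. A match is a description of the letters, not a bound site. The 8 sites printed here lie upstream of the annotated start sites and are those of the defining pair and of members that the results turn on, printed 5′ to 3′ on the strand that reads the motif, with the motif in capitals.
Ifit1, chr19:34640794-34640823, minus strand: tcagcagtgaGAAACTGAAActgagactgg
Ifit3, chr19:34583397-34583426, minus strand: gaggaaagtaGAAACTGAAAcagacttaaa
Isg15, chr4:156200871-156200900, minus strand: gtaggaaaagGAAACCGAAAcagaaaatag
Rsad2, chr12:26456553-26456582, plus strand: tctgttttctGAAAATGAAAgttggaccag
Oas3, chr5:120777715-120777744, minus strand: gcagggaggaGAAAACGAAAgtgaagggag
Bst2, chr8:71537577-71537606, minus strand: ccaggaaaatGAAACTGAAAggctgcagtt
Phf11b, chr14:59341361-59341390, minus strand: cacatttagaGAAAAAGAAActagaaacta
Stat2, chr10:128270266-128270295, minus strand: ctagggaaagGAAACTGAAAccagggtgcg
Ifit1, Ifit3, Bst2 and Isg15 each held more than 1 match: Ifit1 a further one 94 bases upstream, Ifit3 one 146 bases upstream, Bst2 an overlapping one 120 bases upstream, and Isg15 3 overlapping matches between 56 and 68 bases upstream. The Ifit3 letters shown also occur upstream of Ifit3b, and 41.1% of the 75-base stretches of Ifit3 transcripts are shared with other genes, chiefly Ifit3b, so the split of their counts is uncertain. The same holds for Oas1a (47.6%, chiefly Oas1g), Phf11b (26.8%, Phf11c) and Ifi209 (23.1%, Ifi214), while 31 members shared no stretch.

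In wildtype NK barcodes the members fell into genes seen in few barcodes and genes seen throughout the population. A barcode with at least 1 UMI of Ifit1 or Ifit3, which encode antiviral proteins that bind foreign RNA or aid in that response, is called Ifit-positive. Members were called confined where at least 30% of their wildtype NK UMIs lay in Ifit-positive barcodes and under 10% of Ifit-negative barcodes held a UMI, and broad where at least 10% of Ifit-negative barcodes held one. Besides the defining pair, 16 members were confined: Ifit2, Isg15, Isg20, Oasl1, Oasl2, Oas1a, Oas3, Mx1, Rsad2, Usp18, Ifi27l2a, Ifi44, Rtp4, Slfn5, Cmpk2 and Ifitm3. The 16 broad members were Irf7, Irf9, Bst2, Zbp1, Ifi203, Ifi209, Ifi35, Phf11b, Xaf1, Trim30a, Parp14, Samd9l, Epsti1, Lgals3bp, Daxx and Trafd1. A further 9 met neither definition (Stat2, Ifih1, Ddx60, Dhx58, Ifi213, Parp9, Slfn8, Herc6 and Eif2ak2), and 4 had fewer than 20 UMIs over both libraries and were not compared (Oas2, Ifit1bl1, Slfn1 and Ifit3b).

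**Figure D1:**
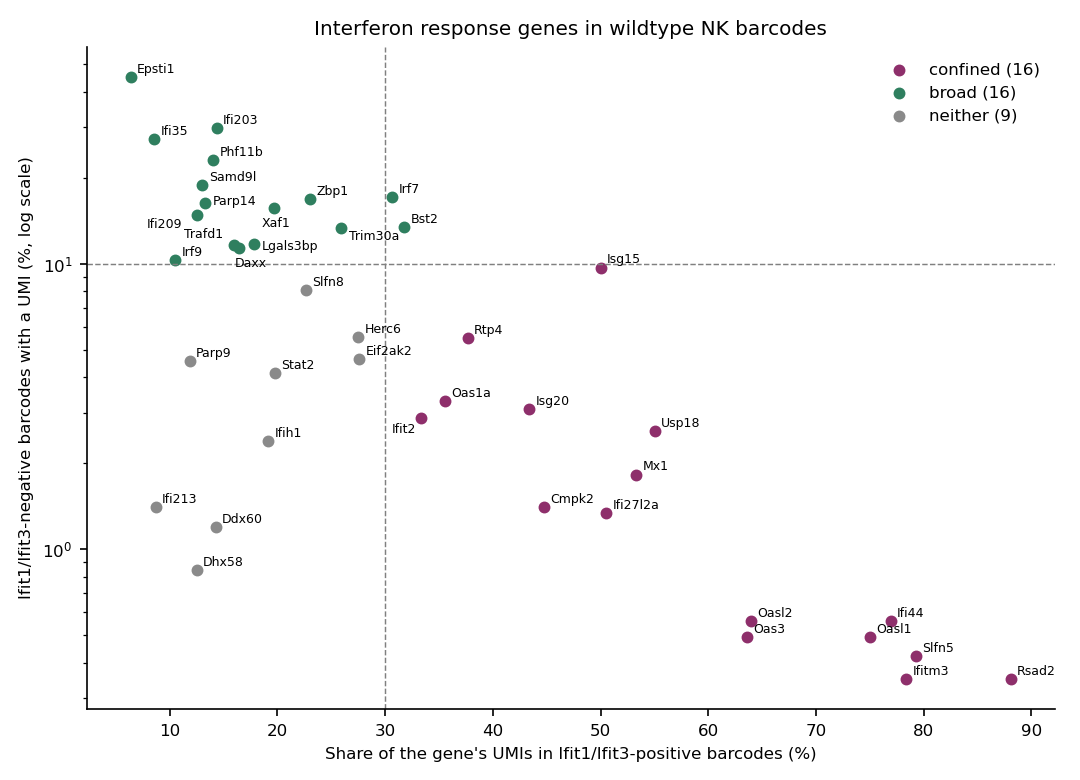
Members in wildtype NK barcodes by the share of their UMIs that lay in the 47 Ifit-positive barcodes (x axis, %) and by the share of the 1425 Ifit-negative barcodes that held a UMI (y axis, %, log scale); each point is 1 gene and dashed lines are the limits of 30% and 10%. Rsad2 lies farthest to the right at 88.1%, and Epsti1 at the top at 45.0% of negative barcodes.

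The division was not sharp everywhere, and it follows abundance in part, since a gene of few UMIs cannot reach 10% of barcodes: confined members had 22 (Oas3) to 382 (Isg15) wildtype NK UMIs and broad members 181 (Irf9) to 1032 (Epsti1). Isg15 was just inside the confined set with UMIs in 9.68% of Ifit-negative barcodes, and Irf9 just inside the broad set with 10.3%. Ifit2 was confined with 33.3% of its UMIs in Ifit-positive barcodes, whereas Eif2ak2 (27.6%) and Herc6 (27.5%) were left in neither set. Irf7 (30.6%) and Bst2 (31.8%) passed both limits on concentration and breadth and counted as broad. The sets were drawn from wildtype values, so the library differences by set are descriptions. Taking the sets from both libraries together left 44 of the 47 members where they were, whereas limits of 50% and 20% left 11 confined and 4 broad members and put 26 in neither set.

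Interferon response genes were mostly lower in NK barcodes of the 3xTg-AD library, and the confined members by most. Of the 43 measured members 28 were at least 1.5-fold lower, a limit passed by 5.56% of the 9838 genes with at least 20 UMIs, and 1 was at least 1.5-fold higher, as were 6.47% of all genes. Their median log2 ratio of 3xTg-AD over wildtype was -0.95, against 0.05 for all genes. Because the members were chosen with earlier results of these data known, these contrasts with all genes are descriptions. Some members, such as Oasl2 (25 and 0 UMIs) and Rsad2 (42 and 0), reached 20 UMIs through the wildtype library alone. In a joint clustering of all kept barcodes, made without correction for library, several NK-like clusters were uneven between the libraries. Clusters 0 and 8 held 295 and 225 wildtype and 53 and 10 3xTg-AD barcodes. Clusters 1, 2 and 6 held 98, 191 and 78 wildtype and 414, 415 and 224 3xTg-AD barcodes. A difference in cell makeup and a shift of expression across a whole library cannot be told apart here. The part of this unevenness in the member levels was not tested. The defining Ifit1 had 69 wildtype and 11 3xTg-AD UMIs and Ifit3 94 and 5, which put 3xTg-AD at 0.158 times (0.0752 to 0.2997) and 0.0526 times (0.0167 to 0.127) the wildtype CPM. All 16 confined members were at least 1.5-fold lower in 3xTg-AD, with a median log2 ratio of -2.81. Summed over the set, the level was 299.6 CPM in wildtype and 69.4 CPM in 3xTg-AD.

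Among the effectors, Isg15, a ubiquitin-like protein that is attached to other proteins after interferon, was the confined member with the most UMIs. It had 382 UMIs in 170 wildtype barcodes and 137 UMIs in 123 3xTg-AD barcodes, a ratio of 0.354 (0.289 to 0.432). The share of barcodes with a UMI thus differed less (11.5% and 8.08%) than the level, and the highest barcode held 15 UMIs in wildtype and 3 in 3xTg-AD. Usp18, which removes ISG15 from proteins and also restrains signalling at IFNAR2, had 89 and 8 UMIs (0.0888, 0.0372 to 0.183). Isg20, an RNA exonuclease, had 106 and 37 UMIs (0.345, 0.231 to 0.506). Of these genes, Isg15 was the one found in more than 5% of barcodes in both libraries.

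Rtp4, a receptor-transporting protein with antiviral activity, had 146 and 44 UMIs in wildtype and 3xTg-AD NK barcodes (0.298, 0.208 to 0.420). Mx1, a gene of the dynamin-like GTPases, had 60 and 16 UMIs (0.263, 0.142 to 0.463). Oas1a, which senses double-stranded RNA and makes the second messenger of RNase L, had 76 and 18 UMIs (0.234, 0.132 to 0.395), and its relatives Oas3 and Oasl1 had 22 and 2, and 28 and 3. For Oasl2 the counts were 25 and 0, at least 8.43-fold lower in 3xTg-AD when 3 counts over the library are taken as the floor. Rsad2, which encodes viperin, was also at 0 in 3xTg-AD against 42 UMIs in 20 wildtype barcodes, at least 14.2-fold lower on the same floor. The remaining confined members were Ifit2 (63 and 35 UMIs), Slfn5 (29 and 5), Cmpk2 (38 and 7), Ifi44 (52 and 2), Ifi27l2a and Ifitm3. Ifit2 differed least of the 16, at 0.549 times the wildtype level (0.352 to 0.843).

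The UMIs of Ifi27l2a and Ifitm3 were concentrated in few barcodes. Ifi27l2a, a small membrane protein induced by interferon, had 188 UMIs in 27 wildtype barcodes and 8 UMIs in 5 3xTg-AD barcodes, with up to 32 UMIs in a single wildtype barcode. Of the wildtype UMIs, 83.0% lay in 10 barcodes. Only 8 of these 27 wildtype barcodes were Ifit-positive, yet Bst2 was found in 66.7% of the 27 and in 14.1% of the other wildtype NK barcodes, Irf7 in 63.0% and 18.1%, and Isg15 in 48.1% and 10.9%. Ifitm3, a membrane protein that restricts virus entry, had 37 UMIs in 13 wildtype barcodes and 2 UMIs in 2 3xTg-AD barcodes, and 91.9% of its wildtype UMIs lay in 10 barcodes. Counting intervals treat UMIs as independent and are therefore too narrow for such genes. In 3xTg-AD NK barcodes, Ifit1, Ifit3, Usp18, Oasl1, Oas3, Ifi27l2a, Ifi44, Slfn5, Cmpk2 and Ifitm3 were each found in 0.0657% to 0.526% of barcodes. Those shares did not exceed the range of Ttr and Apoe. Free RNA of the named genes themselves was not measured, so their 3xTg-AD levels were not separated from background.

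**Figure D2:**
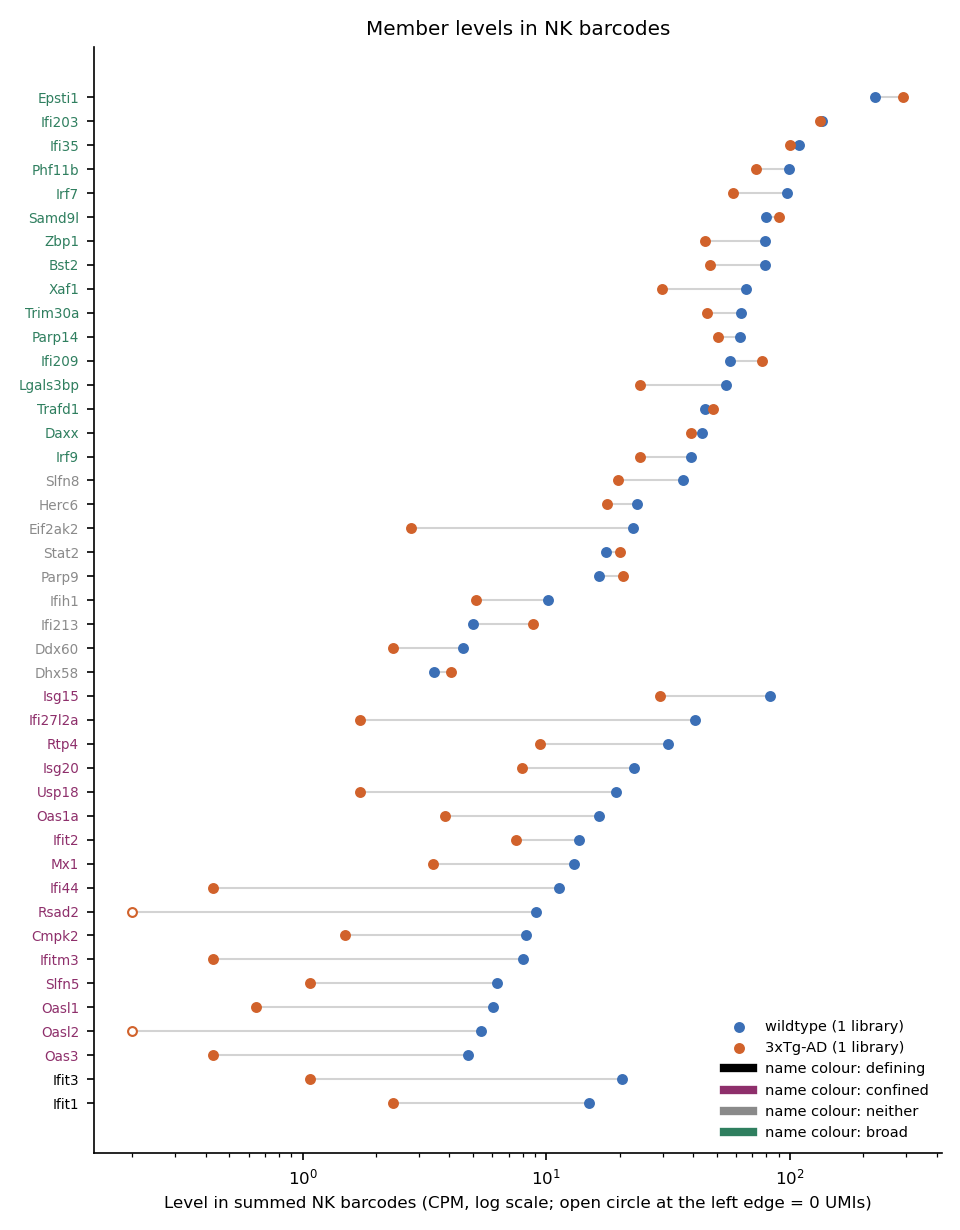
Level of each of the 43 measured members in summed NK barcodes (x axis, CPM, log scale), with 1 point per library; lines join the libraries and name colours give the set. Confined members sit to the left in 3xTg-AD, with Rsad2 and Oasl2 at 0 UMIs, while broad members such as Ifi203 (135.6 and 133.2 CPM) nearly coincide.

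In the wildtype library, but not in 3xTg-AD, a large share of the confined UMIs lay in a small group of NK barcodes. Ifit-positive barcodes supplied 154.5 of 299.6 CPM of the confined sum in wildtype and 5.57 of 69.4 CPM in 3xTg-AD. They were 47 of 1472 in wildtype (3.19%, 2.36 to 4.22) and 11 of 1522 in 3xTg-AD (0.723%, 0.361 to 1.29). After each barcode was thinned to 1400 UMIs, with 106 and 80 shallower barcodes left out, they were 25 of 1366 (1.83%, 1.19 to 2.69) and 7 of 1442 (0.485%, 0.195 to 0.998). Barcodes with at least 3 confined members were 35 of 1366 thinned wildtype barcodes (2.56%, 1.79 to 3.55) and 2 of 1442 3xTg-AD barcodes (0.139%, 0.0168 to 0.5001). They held 61.2% of the confined UMIs of the thinned wildtype and 7.30% of the thinned 3xTg-AD library. The confined genes were chosen for lying in Ifit-positive wildtype barcodes, so this count is a description and no second check of the library difference.

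Since Ifit1 and Ifit3 in 3xTg-AD were not separated from background, the same holds for the label of the 11 3xTg-AD barcodes called Ifit-positive. Their content is given with that limit. In wildtype the Ifit-positive barcodes carried a median of 6 confined members (0 to 13), and 30 of the 47 carried at least 3. In 3xTg-AD the median was 0 (0 to 7), and 2 of the 11 carried at least 3. The summed level of confined members in Ifit-positive barcodes was 4327 CPM in wildtype and 598.6 CPM in 3xTg-AD. Irf7 was found in 76.6% and 45.5% of these barcodes, Bst2 in 66.0% and 36.4%, and Zbp1 in 63.8% and 18.2%. With 2 or more UMIs of Ifit1 and Ifit3 required, 23 of 24 wildtype barcodes and 1 of 4 3xTg-AD barcodes carried at least 3 confined members. Of the 11 3xTg-AD barcodes, 6 held no UMI of the confined set.

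Wildtype Ifit-positive barcodes differed from Ifit-negative ones in genes outside the response as well. Klrg1 and S1pr5, which are expressed by mature NK cells, were found in 19.1% and 29.8% of the positive and in 49.2% and 60.5% of the negative barcodes. Cd27 and Il7r, found on less mature NK cells and other innate lymphocytes, were found in 21.3% and 19.1% of positive and in 10.0% and 7.23% of negative barcodes. Ncr1 was found in 93.6% of the positive barcodes, their median depth was 3081 UMIs against 2884, and the T list summed to 24.3 CPM against 7.86. The part of these differences in the member levels was not tested.

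Of the lower confined level in 3xTg-AD, most lay in Ifit-positive barcodes but not all of it. The gap of 230.3 CPM was made up of 148.9 CPM (64.7%) in positive and 81.4 CPM (35.3%) in negative barcodes. Confined genes were chosen for lying in wildtype Ifit-positive barcodes, so a large positive part is built in and these figures are a description. The label of the 3xTg-AD positive barcodes carries the limit given above. For the broad set, the gap of 155.4 CPM was smaller than the 189.6 CPM from positive barcodes. Negative barcodes contributed 34.2 CPM more in 3xTg-AD than in wildtype. These parts are CPM of all NK UMIs, so they mix level with the share of UMIs in each kind of barcode. Ifit-negative barcodes held 96.4% of NK UMIs in wildtype and 99.1% in 3xTg-AD. Within them the broad set stood at 1160 and 1164 CPM and the confined set at 150.5 and 64.4 CPM. Within Ifit-positive barcodes the broad set stood at 5972 and 2532 CPM and the confined set at 4327 and 598.6 CPM.

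**Figure D3:**
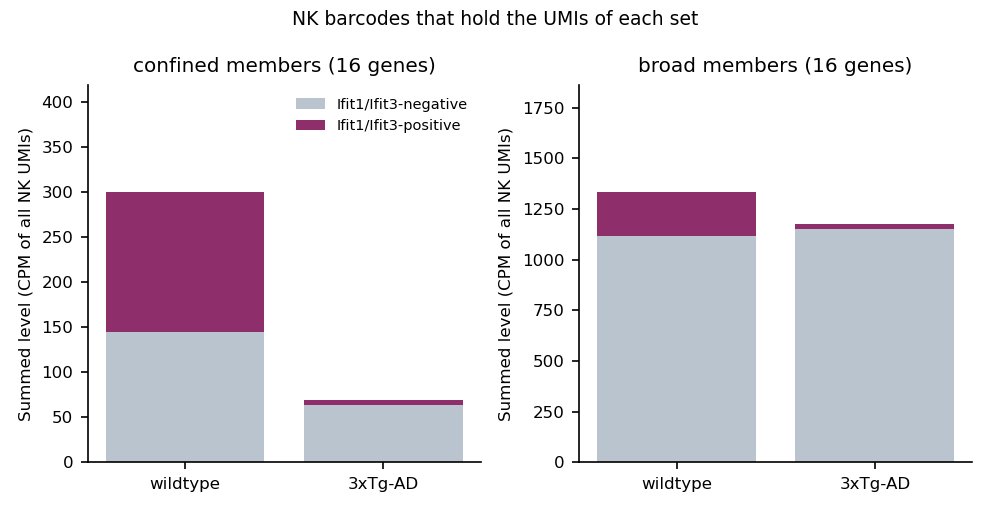
Summed level of the 16 confined (left) and 16 broad members (right) in NK barcodes, in CPM of all NK UMIs of the library, divided into Ifit-positive and Ifit-negative barcodes; 1 library per bar. The confined sum is 299.6 CPM in wildtype and 69.4 CPM in 3xTg-AD, and the broad sum 1332 and 1177 CPM, on axes of different scale.

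The broad members differed less between the libraries and in both directions. Over all NK barcodes, 6 of the 16 passed the 1.5-fold limit downwards in 3xTg-AD (5.56% of all genes) and 0 upwards (6.47%). The median log2 ratio was -0.37. The 6 lower ones included the transcription factors Irf7 and Irf9. Irf7, the factor that amplifies interferon production and is itself induced, had 447 wildtype and 273 3xTg-AD UMIs (0.603, 0.517 to 0.703). Irf9, the DNA-binding partner of STAT2, had 181 and 113 UMIs (0.617, 0.483 to 0.785). Both factors were thus lower in the 3xTg-AD library, by 1.66-fold and 1.62-fold.

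The other 4 lower broad members were effectors and a sensor. Bst2, or tetherin, which holds budding virions at the cell surface, had 365 and 219 UMIs (0.593, 0.499 to 0.703). Zbp1, which senses Z-form nucleic acid and can trigger cell death, had 365 and 209 UMIs (0.566, 0.475 to 0.672). Xaf1, an antagonist of the apoptosis inhibitor XIAP, had 305 and 139 UMIs (0.450, 0.366 to 0.552), and Lgals3bp, a secreted galectin-binding glycoprotein, had 253 and 113 UMIs (0.441, 0.350 to 0.553). These 4 genes were found in 13.0% to 18.3% of wildtype NK barcodes, the confined members in 0.883% (Ifitm3) to 11.5% (Isg15).

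The other 10 broad members lay within 1.5-fold, some lower and some higher. Epsti1, the member with the most UMIs, had 1032 wildtype and 1364 3xTg-AD UMIs, a ratio of 1.31 (1.20 to 1.42), and was found in 45.9% and 54.4% of NK barcodes. Ifi203 of the interferon-inducible p200 family of DNA-binding proteins had 626 and 622 UMIs (0.982, 0.877 to 1.10), and its relative Ifi209 had 263 and 360 (1.35, 1.15 to 1.59). Ifi35, a regulator of innate signalling, had 503 and 467 UMIs (0.917, 0.807 to 1.04), and Samd9l, a restriction factor, had 368 and 420 (1.13, 0.978 to 1.30). Phf11b (455 and 338 UMIs), Trim30a (290 and 213), Parp14 (287 and 237), Daxx (201 and 184) and Trafd1 (207 and 225) had ratios between 0.726 and 1.07. Of these 10 genes, Epsti1 and Ifi209 had counting intervals above 1, and Phf11b (0.636 to 0.847), Trim30a (0.605 to 0.869) and Parp14 (0.684 to 0.973) had intervals below 1.

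Among the 9 members of neither set, the widest gap was at Eif2ak2. This gene encodes the kinase PKR, which stops translation on sensing double-stranded RNA, and it had 105 UMIs in 86 wildtype barcodes and 13 UMIs in 12 3xTg-AD barcodes (0.122, 0.0630 to 0.218). Without the Ifit-positive barcodes the counts were 76 and 12 (0.152, 0.0752 to 0.281), so the gap was also present outside the small positive group. Ifih1, which encodes the RNA sensor MDA5, had 47 and 24 UMIs (0.505, 0.295 to 0.842), Ddx60 21 and 11 (0.518, 0.225 to 1.12) and Slfn8 168 and 92 (0.541, 0.415 to 0.702). Stat2, a transcription factor of the pathway, had 81 and 94 UMIs (1.15, 0.843 to 1.56). Dhx58 (16 and 19 UMIs), Parp9 (76 and 96) and Herc6 (109 and 83) had ratios of 1.17, 1.25 and 0.752. Ifi213, another p200 gene, was the single member at least 1.5-fold higher in 3xTg-AD, with 23 and 41 UMIs (1.76, 1.03 to 3.07). Of the 4 members under 20 UMIs, Ifit1bl1 had 10 and 4, Slfn1 5 and 0, Ifit3b 3 and 3, and Oas2 1 and 0.

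Leaving out the Ifit-positive barcodes asks how the members differed in NK barcodes where no UMI of Ifit1 or Ifit3 was captured. Such barcodes need not lack the response. They held up to 10 confined members and 51 confined UMIs in wildtype, and up to 3 and 8 in 3xTg-AD. Of 34 members with at least 20 UMIs there, 13 were at least 1.5-fold lower in 3xTg-AD (5.39% of all genes) and 1 higher (6.66%), with a median log2 ratio of -0.34 against 0.05 for all genes. Confined members were still lower: 7 of the 9 measured, with a median of -1.32. Ifi27l2a had 93 and 8 UMIs (0.0827, 0.0347 to 0.170), Usp18 40 and 7 (0.168, 0.0636 to 0.380), and Rtp4 91 and 38 (0.402, 0.268 to 0.593). Isg15, at 191 and 133 UMIs, came to 0.670 (0.533 to 0.840), nearer to 1 than over all NK barcodes. Confined members under 20 UMIs in these barcodes are not in the counts. Among Ifit-negative barcodes, at least 3 confined members were carried by 23 of 1425 in wildtype and by 2 of 1511 in 3xTg-AD.

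In the same Ifit-negative barcodes the broad set summed to 1160 CPM in wildtype and 1164 CPM in 3xTg-AD, with a median log2 ratio of -0.14 over 16 members. Only Xaf1 (0.530, 0.426 to 0.656) and Lgals3bp (0.509, 0.400 to 0.644) remained at least 1.5-fold lower. Irf9 (0.671), Zbp1 (0.705), Irf7 (0.804) and Bst2 (0.827) were closer to 1 than over all NK barcodes, and Epsti1 (1.34), Ifi209 (1.48) and Samd9l (1.24) lay above it. The stress gene list, which handling can raise, summed to 1027 CPM in wildtype and 1520 CPM in 3xTg-AD Ifit-negative barcodes. An erythroid UMI was seen in 5.19% of them in wildtype and in 0.0662% of them in 3xTg-AD. The part of the stress genes and of erythroid RNA in the member levels was not tested. Over all NK barcodes, not the Ifit-negative ones alone, 28 members were at least 1.5-fold lower once barcodes with an erythroid UMI were left out. That count was not set against all genes.

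**Figure D4:**
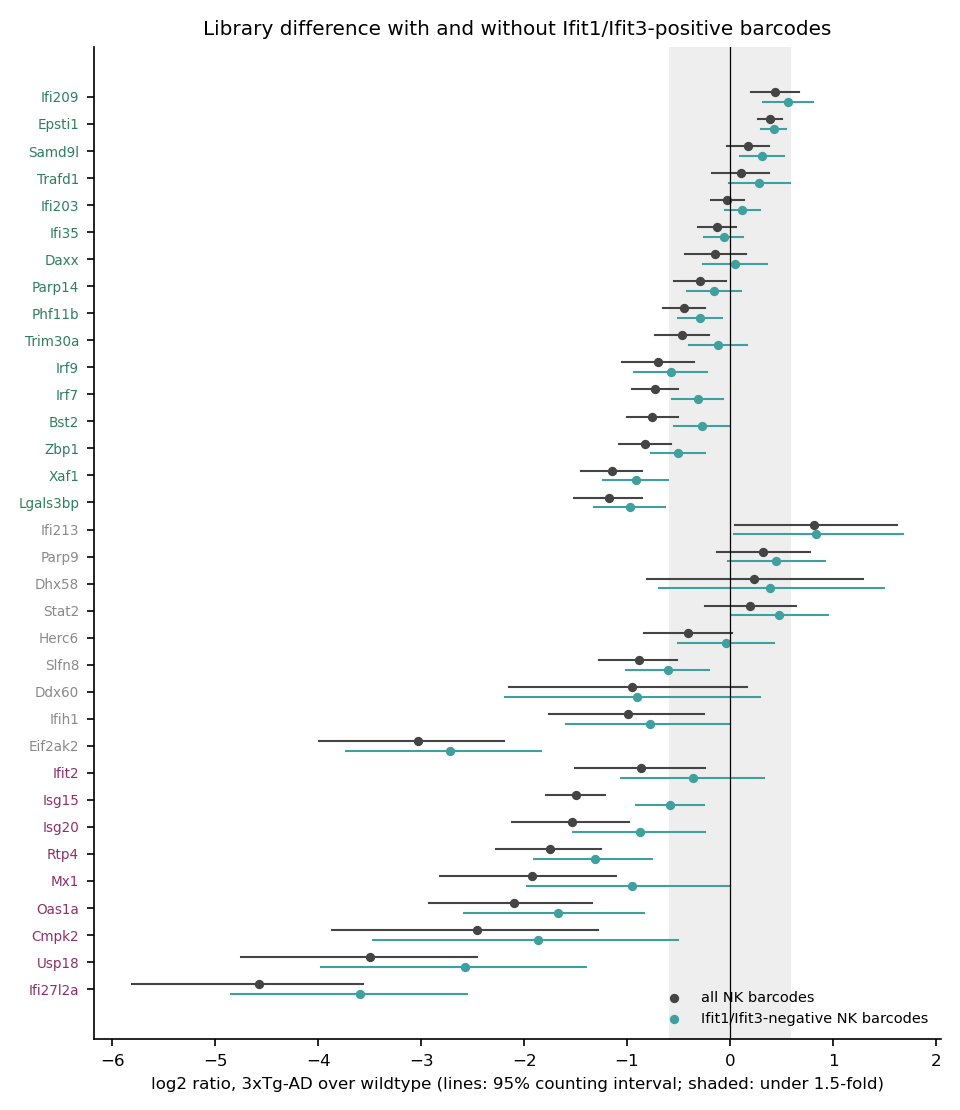
Log2 ratio of 3xTg-AD over wildtype for the 34 members measured in both populations, over all NK barcodes and over Ifit-negative NK barcodes; lines are 95% counting intervals and the shaded band is under 1.5-fold. Isg15 moves from -1.50 to -0.58 and Irf7 from -0.73 to -0.32, while Eif2ak2 stays at -3.03 and -2.72.

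In summed counts, ILC1-like barcodes held more of the confined RNA than NK barcodes did, though much of it lay in few barcodes. In wildtype the confined set summed to 583.7 CPM in ILC1-like and 299.6 CPM in NK barcodes, with 11 of 16 members at least 1.5-fold higher in the former and 2 lower by that much. In this library 12.9% of the 9167 genes measured were at least 1.5-fold higher in ILC1-like barcodes and 25.1% lower. Ifitm3 had 8.02 CPM in NK and 40.4 CPM in ILC1-like barcodes, a ratio of 5.04 (2.88 to 8.65), and Isg20 22.96 and 112.7 CPM, a ratio of 4.91 (3.56 to 6.73). Broad members had a median ratio of 1.05 in wildtype and 0.836 in 3xTg-AD, with 2 of 16 at least 1.5-fold higher in each library and 4 and 5 of 16 lower. In 3xTg-AD, 3 of the 5 confined members measured were at least 1.5-fold higher and 1 lower, against 12.9% and 31.2% of the genes measured. Tnfsf10, 1 of the 5 genes of the gate, is itself known to be induced by interferon, and 5 wildtype and 14 3xTg-AD barcodes entered the gate through it alone. At exactly 3 summed UMIs, the lowest value admitted, were 21 and 23 barcodes, and at 2 UMIs 40 and 29.

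Between the libraries, members were lower in 3xTg-AD in ILC1-like barcodes too. Of 28 members with at least 20 UMIs there, 18 were at least 1.5-fold lower (11.9% of the 5473 genes measured) and 1 higher (10.7%), with a median log2 ratio of -0.88 against -0.01 for all genes. The share of Ifit-positive barcodes was 7 of 101 in wildtype (6.93%, 2.83 to 13.8) and 3 of 79 in 3xTg-AD (3.80%, 0.790 to 10.7), intervals that overlap widely, and after thinning 4 of 98 and 1 of 79. A gene of the gate differed between the libraries as well: Gzmc, a granzyme gene, stood at 1399.6 CPM in wildtype and 304.9 CPM in 3xTg-AD. The part of this in the members' levels was not tested.

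All 6 confined members measured in ILC1-like barcodes were at least 1.5-fold lower in 3xTg-AD, with a median log2 ratio of -1.58. The set was drawn from NK barcodes, and not all of these genes were limited to few ILC1-like barcodes. Isg20 was found in 27.7% of wildtype and 31.6% of 3xTg-AD ones and Rtp4 in 19.8% and 15.2%, but Ifitm3 in 5.94% and 2.53%. Ifi27l2a had 52 UMIs in 3 wildtype barcodes and 3 UMIs in 1 3xTg-AD barcode, and Ifitm3 24 and 2 UMIs. Isg15 had 73 and 11 UMIs (0.198, 0.0947 to 0.375), up to 25 of them in a single wildtype barcode. Isg20 (67 and 33 UMIs; 0.647, 0.413 to 0.996), Oas1a (20 and 9; 0.591, 0.237 to 1.36) and Rtp4 (37 and 16; 0.568, 0.295 to 1.05) had intervals that reached close to 1 or past it. The defining Ifit3 had 20 and 5 UMIs (0.328, 0.0963 to 0.902) and Ifit1 16 and 9 (0.739, 0.288 to 1.78). Leaving out the Ifit-positive barcodes moved the median of the confined members in ILC1-like barcodes to -0.30 over 5 genes, with Isg20 at 1.02 and Rtp4 at 1.01 times the wildtype level. In that population 10 of 22 members were at least 1.5-fold lower (11.7% of all genes). For confined members in ILC1-like barcodes gated without Tnfsf10 the median was -0.74, and gated without Gzmc it was -0.92, each over 5 genes.

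Of the 16 broad members in ILC1-like barcodes, 9 were at least 1.5-fold lower in 3xTg-AD (11.9% of all genes) and 1 higher (10.7%), with a median log2 ratio of -0.88. In NK barcodes, where 5.56% and 6.47% of all genes passed, the counts were 6 and 0, and the difference between the populations was not tested. Zbp1 had 50 and 7 UMIs (0.184, 0.0703 to 0.407), and was found in 28.7% of wildtype and 6.33% of 3xTg-AD ILC1-like barcodes. Irf7 had 83 and 25 UMIs (0.396, 0.242 to 0.625), Bst2 76 and 29 (0.501, 0.315 to 0.778), and Lgals3bp 74 and 27 (0.479, 0.296 to 0.754). Without the Ifit-positive barcodes Zbp1 stood at 0.163 (31 and 4 UMIs), Irf7 at 0.495 and Lgals3bp at 0.459, so these 3 genes stayed lower, whereas Bst2 came to 0.788 (0.473 to 1.29). Phf11b (29 and 8 UMIs), Parp14 (41 and 16), Xaf1 (47 and 19), Trim30a (45 and 19) and Daxx (15 and 6) were the other lower genes, at ratios of 0.362 to 0.555.

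Other broad members of the ILC1-like barcodes lay near 1 or above. Irf9 had 24 and 19 UMIs (1.04, 0.538 to 1.98), Ifi203 91 and 77 (1.11, 0.810 to 1.52), and Epsti1 106 and 74 (0.917, 0.672 to 1.25). Samd9l was the 1 higher member, with 29 and 39 UMIs (1.77, 1.06 to 2.96), in 23.8% of wildtype and 45.6% of 3xTg-AD barcodes. Of the members of neither set, Slfn8 had 26 and 5 UMIs (0.253, 0.0757 to 0.668), Eif2ak2 19 and 6 (0.415, 0.136 to 1.08), Herc6 24 and 19, and Parp9 11 and 10. Ifi35 had 51 and 34 UMIs, Trafd1 27 and 15 and Ifi209 22 and 14, with ratios of 0.730 to 0.876. The other 19 members were under 20 UMIs there, among them Mx1 (14 and 0), Ifi44 (12 and 0), Stat2 (8 and 11) and Ifi213 (0 and 7). Eif2ak2 and Slfn8 were at least 1.5-fold lower in both populations, although the Eif2ak2 interval in ILC1-like barcodes included 1.

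**Figure D5:**
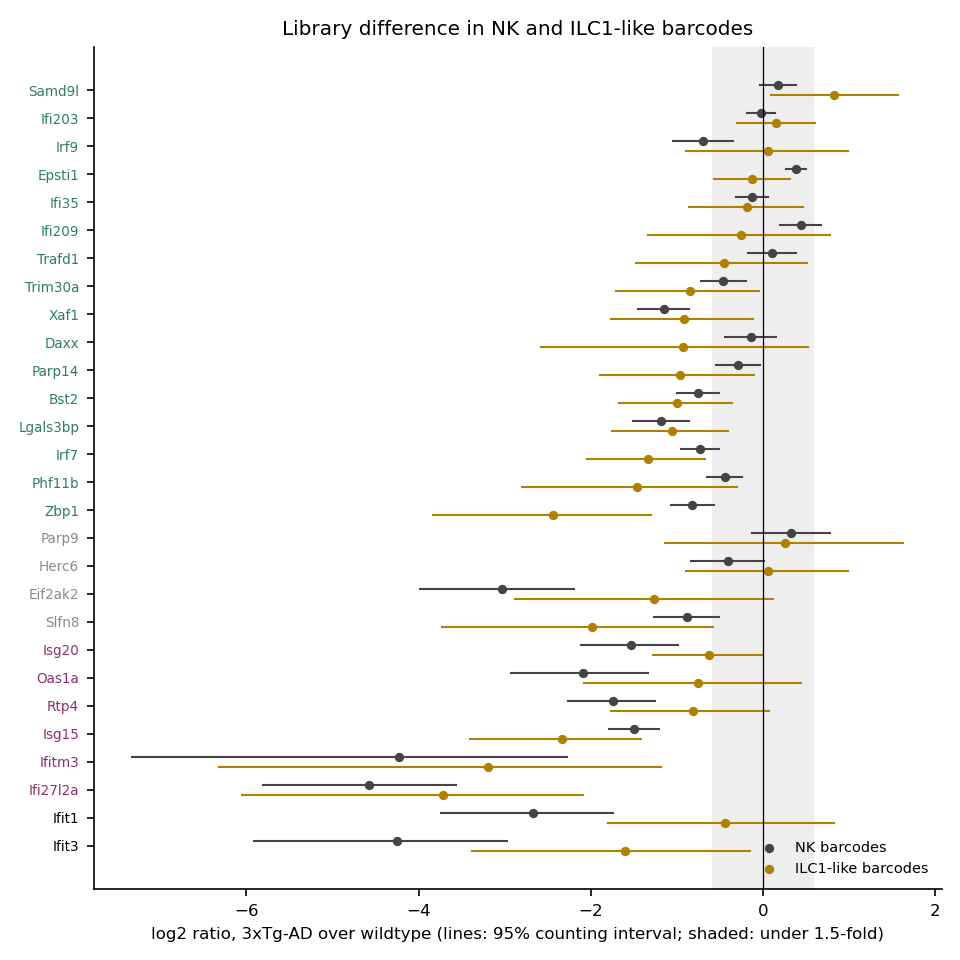
Log2 ratio of 3xTg-AD over wildtype for the 28 members measured in ILC1-like barcodes, beside their ratio in NK barcodes; lines are 95% counting intervals, the shaded band is under 1.5-fold, and name colours give the set as in the plot of levels. Zbp1 stands at -2.44 in ILC1-like and -0.82 in NK barcodes, and Samd9l at 0.82 and 0.17.

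Most genes upstream of the members differed by less than 1.5-fold between the libraries in NK barcodes. No UMI of Ifnb1, Ifna1, Ifna2, Ifna4, Ifnk or Ifne was found in the NK barcodes of either library, which allows up to 3 counts of each, and the type II interferon Ifng had 202 and 171 UMIs (0.836, 0.678 to 1.03). Receptor genes Ifnar1 (228 and 239 UMIs; 1.04, 0.860 to 1.25) and Ifnar2 (444 and 465; 1.03, 0.907 to 1.18) were level. Of 4 measured receptor genes 0 passed 1.5-fold downwards (5.56% of all genes) or upwards (6.47%). Among signalling genes, Jak1 had 2753 and 2754 UMIs (0.988, 0.937 to 1.04) and Tyk2 276 and 387 (1.39, 1.18 to 1.62). Socs1, a feedback inhibitor of JAK kinases that interferon also induces, had 685 and 312 UMIs (0.450, 0.392 to 0.515) and was thus at least 1.5-fold lower in 3xTg-AD. Of 13 measured sensing genes 0 were lower (5.56% of all genes) and Trex1 (5 and 15 UMIs) was higher (6.47%). Of 17 measured signalling genes 2 were lower and 0 higher. With so few genes these counts were not told apart from the shares of all genes. In ILC1-like barcodes, 4 of 7 sensing, 4 of 15 signalling and 0 of 4 receptor genes were at least 1.5-fold lower (11.9% of all genes). Higher there were 1 sensing gene and 0 of the others (10.7%). Socs1 was level in ILC1-like barcodes, with 135 and 113 UMIs (1.10, 0.849 to 1.42).

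A list of 42 further interferon-stimulated genes that are not members, of which 31 were measured in NK barcodes, held 9 that were at least 1.5-fold lower in 3xTg-AD (5.56% of all genes) and 0 higher (6.47%), with a median log2 ratio of -0.24. The widest gaps were at Ly6a, which encodes the surface protein Sca-1 (88 UMIs in 25 wildtype barcodes and 0 in 3xTg-AD), Cxcl10, a chemokine (38 and 2), and the p200 gene Ifi204 (32 and 5). Ly6e had 2851 and 1787 UMIs (0.619, 0.583 to 0.657), and Ifi47, an immunity-related GTPase, had 1020 and 1087 (1.05, 0.966 to 1.15). Apobec3, which encodes a cytidine deaminase that restricts retroviruses, had 500 and 667 UMIs (1.32, 1.17 to 1.48). Genes of this list thus lay on both sides of 1, and those past 1.5-fold were lower in 3xTg-AD.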

How the data were processed

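The authors deposited 1 matrix of UMI counts per library, made with the 10x Genomics 5′ chemistry; no normalization had been applied, and the deposited values were used as counts. Cell Ranger 3.1.0, STAR and mm10 are named in the submitters' processing notes, and the matrix headers carry version 3.0.2, per the file headers. The sources used here do not name the annotation release. The libraries held 1709 barcodes with 5559995 UMIs (wildtype) and 1695 with 5468455 (3xTg-AD).

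Barcodes with fewer than 300 genes (45 wildtype and 10 3xTg-AD), over 10% mitochondrial UMIs (2 and 0) or a Scrublet doublet call (13 and 22) were left out, which kept 1649 and 1663. NK and ILC1-like barcodes held fewer than 3 UMIs of the T, B, myeloid and plasmacytoid dendritic lists each, and at most 1% of UMIs from the erythroid and neutrophil lists each; 76 and 62 kept barcodes were in neither class. Counts were summed per population and scaled to CPM. Each ratio divides the 3xTg-AD by the wildtype CPM and has an exact conditional binomial 95% interval, shares have Clopper-Pearson intervals, and genes needed 20 UMIs over both libraries. Medians take genes at 0 UMIs at a floor of 3 counts. PCR duplicates are collapsed by UMIs, but barcodes vary beyond counting error. Python 3.11.15, scanpy 1.11.5, scipy 1.17.1 and numpy 2.4.6 were used, and igraph 0.11.9 for the clustering alternative. The ratio, interval and thinning steps were tested on simulated data.

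The members and lists were chosen with earlier results of these data known. All 47 members are accounted for; Ifit1, Ifit3, Isg15, Ifi27l2a, Irf7, Irf9, Stat2, Bst2 and Ifitm3 and the 8 members of each set with most UMIs are described in full, and members of the pathway lists with at least 20 UMIs may be named. Alternatives changed the scaling, gene minimum, doublet removal, thinning, gates, set limits and fold limit. Some genes of the marker and pathway lists are not reported here.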

Additional observations from a re-analysis of the deposited data

Results flagged for a closer look

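Ifit-positive barcodes also occurred among the kept barcodes that were neither NK nor ILC1-like, which no comparison above uses. They made up 9.21% (7 of 76, 3.78 to 18.1) in the wildtype library and 4.84% (3 of 62, 1.01 to 13.5) in the 3xTg-AD library. Those that met the T cell list were 2 of 20 in wildtype and 3 of 18 in 3xTg-AD, those that met the myeloid list 1 of 8 and 0 of 31, and those with under 3 UMIs of the NK list 3 of 44 and 0 of 12. With no control samples, these shares were set against the limit that a count of 0 allows.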

How the results depend on the processing

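Of 141 alternative values of the summary results, 128 were counted as close to the value reported and 13 as moved. Close was a wide label: for broad members in NK barcodes a median of -0.08 was counted as close to -0.37. Counts of members and shares of barcodes are among these values and cannot change sign, so a change of direction could be seen in the medians alone. Medians stayed below 0 throughout: -1.01 to -0.46 for members in NK barcodes and -0.45 to -0.08 for broad members in NK barcodes. A minimum of 100 UMIs took the count of members at least 1.5-fold lower from 28 to 12 of 25 in NK barcodes, from 18 to 4 of 6 in ILC1-like barcodes and from 13 to 5 of 23 in Ifit-negative NK barcodes, and the confined median in NK barcodes to -1.64 over 4 genes, since fewer genes are measured; a minimum of 5 UMIs gave 21 of 42 in Ifit-negative NK barcodes. In ILC1-like barcodes the count was 3 of 8 after thinning, 10 at a 2-fold limit, and 10 of 22 without Ifit-positive barcodes, chosen after seeing the data, with medians of -0.32 over all members and -0.30 over confined ones. The thinned Ifit-positive share of 1.83% in wildtype was 3.19% without thinning, and with 2 UMIs required the thinned shares were 0.878% in wildtype and 0.0693% in 3xTg-AD. For the 105 results for single genes, a change of direction was counted only where the reported difference was at least 1.5-fold. Of those, 3 changed direction under 1 alternative each. In ILC1-like barcodes the log2 ratio of Xaf1 was 0.048 after thinning, and those of Isg20 and Rtp4 were 0.027 and 0.018 without Ifit-positive barcodes. The cause was not tested. Among the counts under other settings, a share of all genes was taken only for ILC1-like barcodes without Ifit-positive ones (11.7%). The other counts are not set against all genes. No paired analysis was possible because each genotype has 1 library. The 11 Ifit-positive 3xTg-AD barcodes and the 79 ILC1-like ones limit what can be compared.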

Other observations

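Genes outside the member list were also high in the wildtype Ifit-positive NK barcodes, and the ones named here were chosen after their values were seen. Ranked by level in positive over negative barcodes among 7149 genes with at least 50 UMIs, 18 of the leading 30 were members, of 32 members ranked; Ifit3 and Ifit1 lead by the definition of positive, and 9 more belong to the confined set, chosen for lying in these barcodes. Lilr4b, which encodes an inhibitory receptor, had 40 UMIs in the 47 positive and 17 in the 1425 negative barcodes. Ifi214, a p200 gene that shares sequence with Ifi209, had 52 and 114. Cd69, an early activation marker that type I interferon is known to induce, had 27 and 85, and Mxd1, a transcription factor of the Myc network, had 102 and 355. In a joint clustering of both libraries, 1 cluster held 46 wildtype and 3 3xTg-AD barcodes, of which 34 and 3 were Ifit-positive.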
